A study of Mus musculus with 11 samples.

Results

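The transcripts described here are 38 genes of the mature skeletal muscle fibre, its contractile filaments, Z-disc, calcium handling and energy supply, measured by RNA sequencing in sorted muscle stem cells. They are the rows of the count table that carry a fixed list of gene symbols, 38 of 48709 genes, and all 38 passed the filter on low counts. By the fibre type in which each is mainly known, 14 were taken as fast, 7 as slow and 17 as shared between fibre types. The question asked of them was whether fast, slow and shared members move alike between the groups.

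All cells came from C57BL/6 mice with the transgene Tg:Pax7-nGFP, a nuclear green fluorescent protein under control of Pax7, and from pectoral, forelimb and hindlimb muscles. No age is given in the labels. In T0 (3 libraries) the tissue was fixed whole, for 1 h at 4°C in 0.5% paraformaldehyde, with the cells still in place. In T3 (4 libraries) live cells were isolated by fluorescence-activated sorting and only then fixed, for 30 min on ice in 0.5% paraformaldehyde. T5 (4 libraries) had a further 2 h at 37°C, which the labels' protocol places before the isolation, with the dissected muscle in DMEM, and the series description after it. Fixation thus differs between T0 and T3 together with isolation, and the effects of the 2 cannot be told apart. The T5 libraries carry 2 letters and were added up by letter, which left replicates A and B. Whether libraries came from separate animals is not in the labels, and every p-value below rests on a spread between samples that may be technical.

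A muscle fibre contracts when calcium released from the sarcoplasmic reticulum binds troponin on the thin actin filament and lets myosin of the thick filament pull on it. Fast and slow fibres use different genes for the same part of this machine, so that most filament proteins come as a fast and a slow counterpart. Muscle stem cells lie between the fibre and its sheath and are not themselves contractile. A sample of them can hold fibre RNA through attached fibre fragments, and some of these genes are also transcribed in the stem cells.

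Library totals were 49078859 to 67251946 counts for T0, 52632553 to 72638711 for T3 and 61837170 to 102347035 for T5. Levels are in CPM, counts relative to TMM-scaled library size. A change is a log2 fold change with its SE, taken from the quasi-likelihood test of edgeR and called where the adjusted p was under 0.05. The 12 satellite cell markers summed to 5794 to 8908 CPM in T0, 2367 to 2926 CPM in T3 and 2112 to 2152 CPM in T5, and none was at 0. Single genes carried this sum. Pax7, its largest part in T0, went from 3613 ± 719 CPM to 315 ± 64.7 in T3, whereas Sdc4 went from 150 ± 58.5 to 939 ± 161 CPM. Of the 12, 3 rose and 7 fell from T0 to T3. In bulk samples fewer cells of a type and less RNA per cell cannot be told apart. The 10 endothelial markers summed to 255.6 to 298.4 CPM in T0, 454.3 to 552.9 CPM in T3 and 267.5 to 268.8 CPM in T5, with none at 0.

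From T0 to T3, 16 of the 38 fibre genes rose and 6 fell, beside 15.0% of all 31999 genes called higher and 22.9% called lower. The 16 are 42.1% and the 6 are 15.8% of the members. The fast class had 9 of 14 members higher (the myosin heavy chains Myh1 and Myh4, the light chains Mylpf and Myl1, Mybpc2, the troponins Tnni2, Tnnt3 and Tnnc2, and Pvalb) and 2 lower (Actn3 and Atp2a1). The shared class had 7 of 17 higher (Acta1, Ckm, Mb, Ampd1, Ttn, Tcap and Xirp1) and 2 lower (Ryr1 and Mylk2). The slow class had 0 of 7 higher and 2 lower (Mybpc1 and Tnnt1). The count of 0 did not hold under 3 alternatives. Without T0 replicate 3 the slow troponin I gene Tnni1 (log2 0.87, adjusted p = 0.0174), the slow myosin gene Myh7 (0.78, adjusted p = 0.0143) and the slow light chain gene Myl3 (0.74, adjusted p = 0.00803) were called higher. With all replicates kept, upper quartile factors gave a call for Myl3 (0.77, adjusted p = 0.0416), and a replicate block gave one for Tnni1 (0.77, adjusted p = 0.0496), both higher. In the block, T3 replicate 4, which was the lowest T3 replicate for Tnni1, has no T0 replicate of its number. It therefore added nothing to that comparison. The median log2 fold change was 0.90 over fast, 0.15 over shared and 0.46 over slow members, beside 0.0472 over all genes tested.

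From T3 to T5, 6 of the 38 members fell and 2 rose, which is 15.8% and 5.26%, beside 0.888% of all genes lower and 1.28% higher. The 6 were the fast genes Myh4, Mylpf, Tnni2 and Tnnc2 and the shared genes Acta1 and Ckm, and the 2 were the shared genes Xirp1 and Mylk2. No slow member was called. The medians were −0.52 for fast, −0.01 for shared and 0.12 for slow members, beside 0.0511 over all genes. From T0 to T5, 8 members were higher and 5 lower, beside 13.2% and 22.5% of all genes. The 8 were Tnnt3 of the fast, Tnnc1 of the slow and Actn2, Ttn, Xirp1, Ckm, Mb and Ampd1 of the shared class, and the 5 were Actn3, Atp2a1, Ryr1, Mybpc1 and Tnnt1. Leaving out either T5 replicate left 4 higher and 3 lower, ending the calls of Actn2, Ttn, Ckm, Tnnc1, Atp2a1 and Tnnt1. Any pair of these comparisons shares a group of libraries, and their values for a member are therefore not independent.

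**Figure D1:**
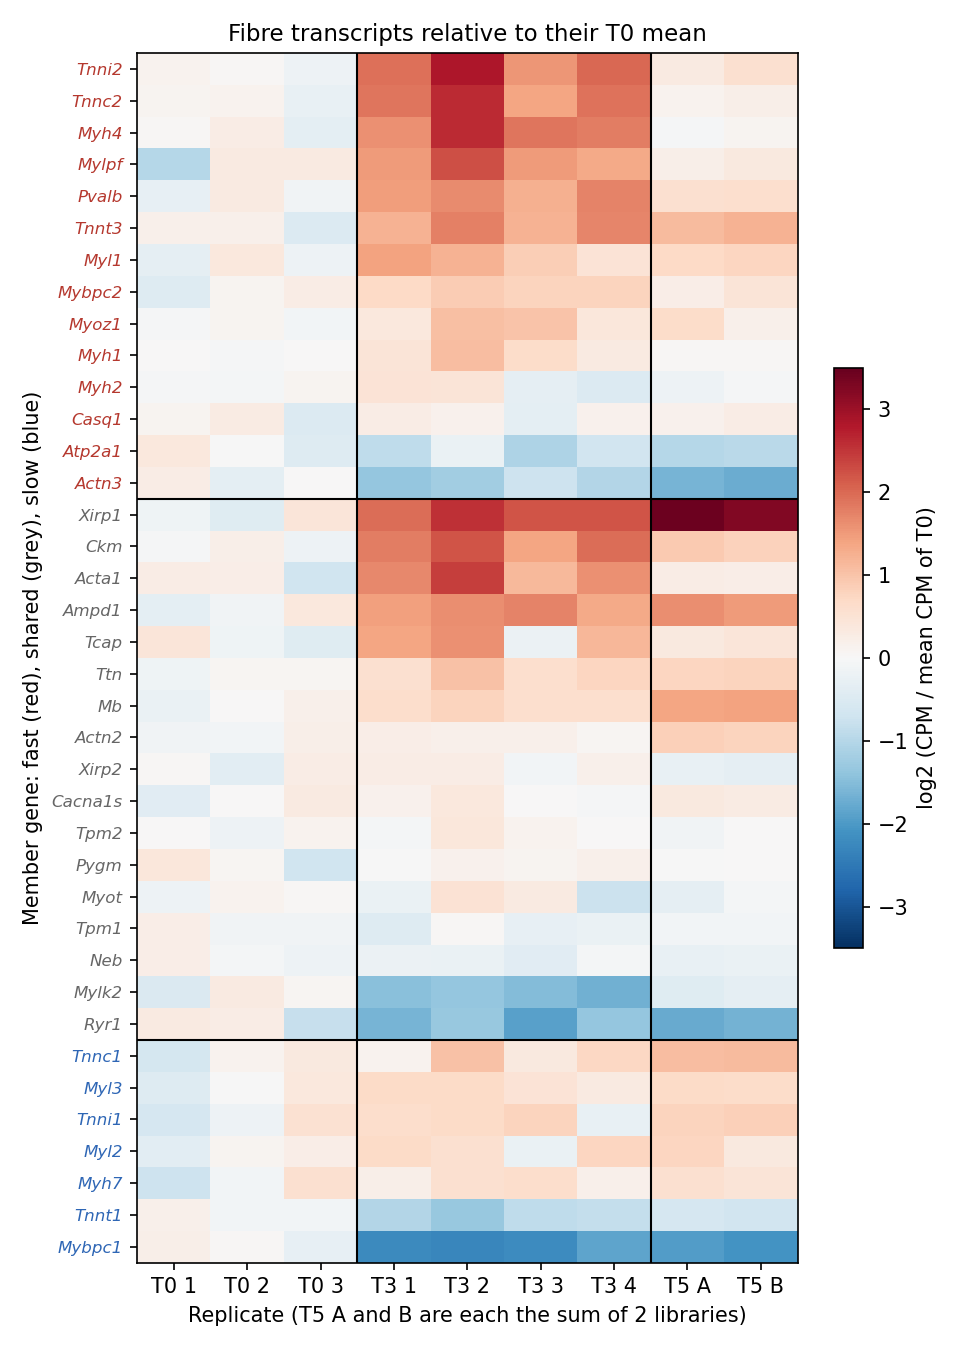
Each row is 1 of the 38 fibre genes and each column 1 replicate. The colour is the log2 ratio of the CPM to the T0 mean, with row labels in red for fast, grey for shared and blue for slow genes. The T3 columns are raised for genes such as Myh4 and Tnni2 and lowered for Mybpc1 and Ryr1.

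**Figure D2:**
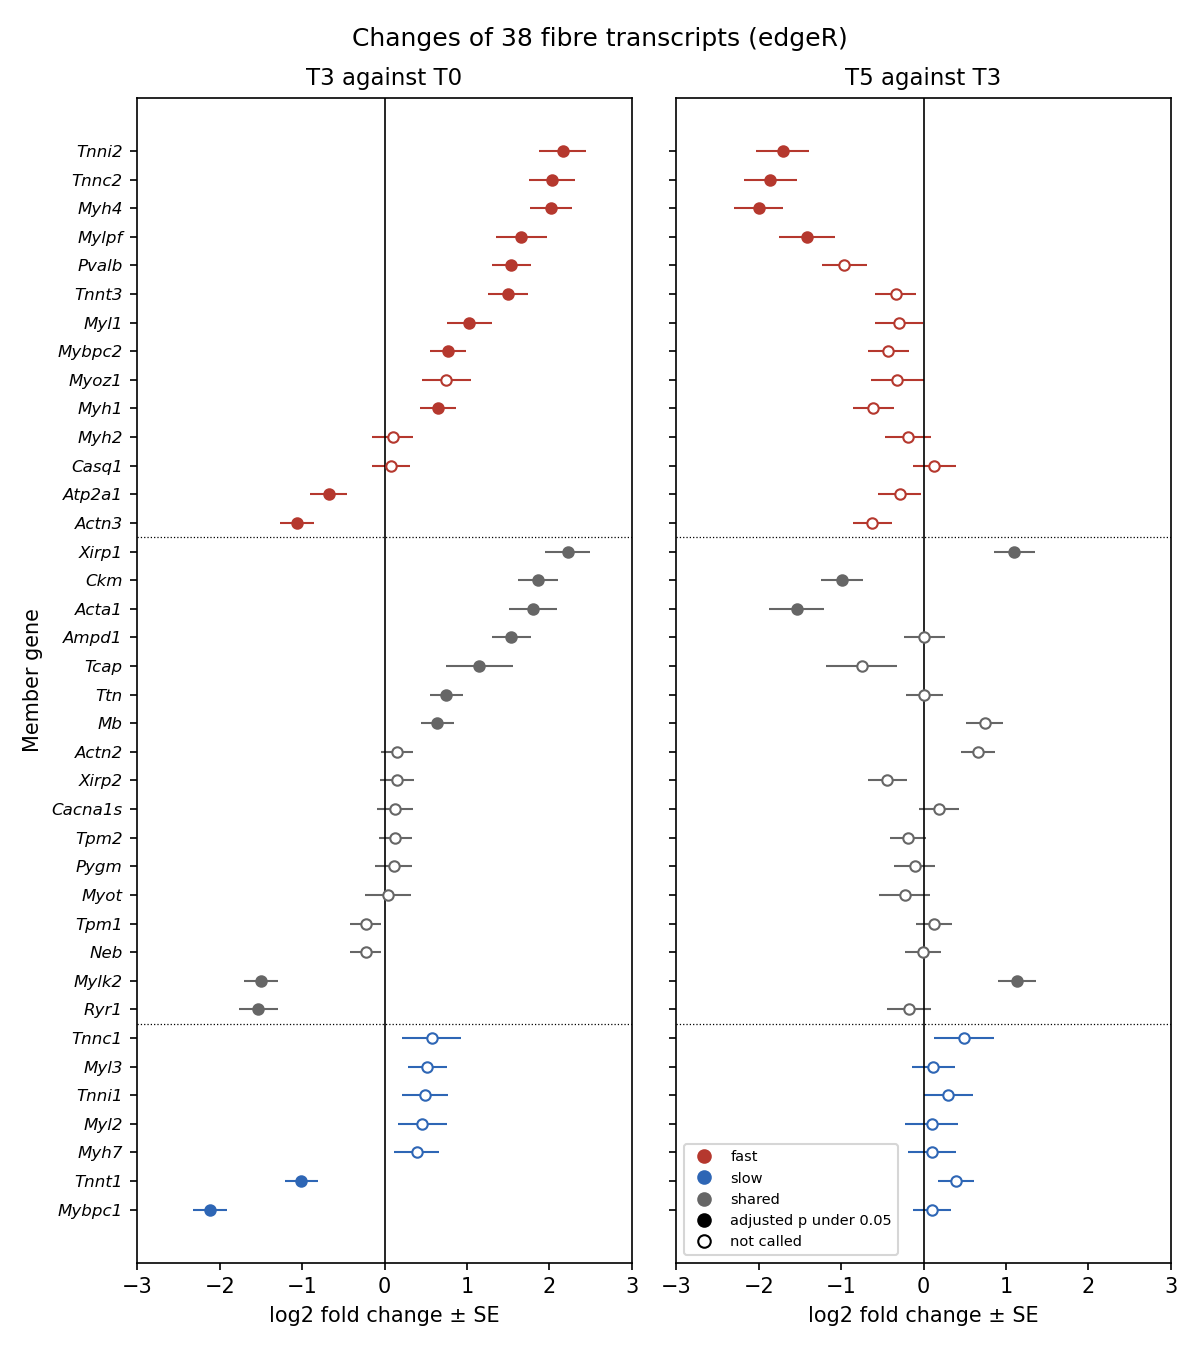
Points are log2 fold changes and bars their SE (edgeR) for T3 against T0 and T5 against T3, 1 row a gene. Myh4 lies at 2.02 in the first panel and at −2.00 in the second, whereas Mybpc1 lies at −2.12 and at 0.10.

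The thick filament is built of myosin, and Myh4 (ENSMUSG00000057003.12, chromosome 11, 67238029 to 67260446, plus strand, GRCm38) encodes the heavy chain of the fastest fibres. Its level was 3.98, 4.62 and 3.08 CPM in T0, then 11.9, 23.7, 14.2 and 13.4 CPM in T3, and 3.75 and 4.15 CPM in T5. Every T3 replicate stood above every T0 and T5 replicate, and T5 overlapped T0. Myh4 rose 2.02 ± 0.25 in log2 from T0 to T3 (adjusted p = 9.36e-07) and fell by 2.00 on the log2 scale from T3 to T5 (SE 0.30, adjusted p = 0.000244). Between T5 and T0 the log2 difference was 0.02 ± 0.29. T3 replicate 2 was the highest, and without it the rise was 1.76 and the later log2 fold change −1.74.

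The neighbouring heavy chain gene Myh1, of another fast fibre type, moved less. It stood at 3.7, 3.62 and 3.73 CPM in T0, at 5.03, 7.74, 5.74 and 4.6 CPM in T3 and at 3.81 and 3.77 CPM in T5. The groups T0 and T3 did not overlap. The rise was 0.65 ± 0.22 on the log2 scale (adjusted p = 0.0221), and the call was lost when T3 replicate 2 or T0 replicate 2 was left out (adjusted p = 0.127 and 0.0779). Myh1 shares 54.3% of its span with Myhas, a transcript on the other strand whose mean was 3.34 CPM in T0 and 4.66 in T3, and the counts hold both strands. Myh2, the third fast heavy chain gene, had a log2 fold change of 0.10 ± 0.25 and was not called.

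Mylpf, the regulatory light chain of fast myosin, stood at 0.476, 1.18 and 1.17 CPM in T0, at 2.63, 4.47, 2.67 and 2.36 CPM in T3, and at 1.09 and 1.19 CPM in T5. The T3 replicates lay above all others, and T5 and T0 overlapped. Mylpf rose 1.66 ± 0.31 (adjusted p = 0.000119) and then fell by 1.41 on the log2 scale (SE 0.34, adjusted p = 0.0266). The second call was lost without T3 replicate 2 (adjusted p = 0.0988), without either T5 replicate (0.309 and 0.254), with upper quartile factors (0.112) and with a mean of at least 1 CPM (0.0643). Myl1, an essential light chain of fast fibres, and Mybpc2, the fast form of myosin binding protein C, rose 1.03 ± 0.27 and 0.77 ± 0.22 from T0 to T3 (adjusted p = 0.00312 and 0.00709).

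Slow members of the thick filament followed no single course. Myl3, an essential light chain of slow fibres and the heart, stood at 1.41, 1.91 and 2.46 CPM in T0, 3.03, 3.04, 2.67 and 2.38 CPM in T3 and 3.06 and 3 CPM in T5. T0 and T3 overlapped through T0 replicate 3 and T3 replicate 4, and the log2 fold change was 0.52 ± 0.24 (adjusted p = 0.0906). Pth1r, which overlaps Myl3 on the other strand, was higher in T3. Myh7, the slow heavy chain, averaged 1.87 ± 0.812 CPM over T0 (SD, n = 3) and 2.47 ± 0.407 over T3 (n = 4), and its log2 fold change was 0.39 ± 0.27. Myl2, its regulatory light chain, had 0.46 ± 0.30.

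Among the 38 members, Mybpc1, the slow form of myosin binding protein C, had the highest mean per kb of exonic length in each group. It stood at 493, 435 and 345 CPM in T0, 91, 87.4, 92.2 and 119 CPM in T3 and 109 and 100 CPM in T5. All T0 replicates were above all others, and T5 lay inside the T3 range. Mybpc1 fell by 2.12 on the log2 scale from T0 to T3 (SE 0.21, adjusted p = 3.46e-08). The log2 difference between T5 and T3 was 0.10 ± 0.23. Per kb of exonic length its mean was 93.7 CPM in T0, whereas Acta1, the main actin of fibres, had 2.19 CPM per kb. Mybpc1 has 82347 intronic bases and Acta1 1447, and the share of intron reads was not tested. Per kb of whole gene span, Mybpc1 stood at 501 and Acta1 at 119 times the background of genes taken as not expressed (given below) in T0. In T3 they stood at 80.9 and 281 times.

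Mylk2, the kinase of the skeletal regulatory light chain, moved opposite to Myh4. It stood at 16.8, 29.4 and 24.8 CPM in T0, 8.59, 9.26, 8.26 and 7.42 CPM in T3 and 17.6 and 19 CPM in T5. The T3 replicates were the lowest and T5 lay within T0. Mylk2 fell by 1.50 (log2, SE 0.21, adjusted p = 3.71e-06) and rose 1.13 ± 0.23 in T5 (adjusted p = 0.00713), a call lost when either T5 replicate was left out (adjusted p = 0.094 and 0.208).

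In the thin filament, Acta1 (ENSMUSG00000031972.5, chromosome 8, 123891769 to 123894751, minus strand) encodes skeletal actin. It stood at 4.05, 3.98 and 2.07 CPM in T0, 10.8, 18, 7.46 and 10.3 CPM in T3 and 4.06 and 3.95 CPM in T5. The T3 replicates were above all others, T3 replicate 2 most, and T5 overlapped T0. Acta1 rose 1.80 ± 0.29 (adjusted p = 2.02e-05) and fell by 1.54 on the log2 scale in T5 (SE 0.33, adjusted p = 0.00946). The fall was lost with either T5 replicate left out (adjusted p = 0.117 and 0.159). Acta1 lies inside the gene model Gm20388 on the other strand, which averaged 2830 CPM over T0 and 3958 over T3 and was not called there.

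Of the fast troponin genes all 3 rose from T0 to T3, and 2 fell again in T5. Tnni2, the inhibitory subunit of fast fibres, stood at 1.06, 1.01 and 0.87 CPM in T0, 3.72, 6.94, 2.85 and 3.93 CPM in T3 and 1.22 and 1.46 CPM in T5. T3 was above both other groups without overlap, and T5 was above T0. Tnni2 rose 2.16 ± 0.29 (adjusted p = 2.34e-06) and fell by 1.71 on the log2 scale in T5 (SE 0.32, adjusted p = 0.00342), with that call lost without T5 replicate A (adjusted p = 0.108).

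Tnnc2 (ENSMUSG00000017300.9, chromosome 2, 164777161 to 164779967, minus strand), the calcium-binding subunit of fast fibres, stood at 1.1, 1.12 and 0.857 CPM in T0, 3.74, 6.34, 2.67 and 3.88 CPM in T3 and 1.12 and 1.18 CPM in T5. T3 was again the highest group without overlap. Tnnc2 rose 2.03 ± 0.28 (adjusted p = 3.96e-06) and fell by 1.86 on the log2 scale (SE 0.32, adjusted p = 0.00142). It shares 59.2% of its span with Ube2c on the other strand, which was also higher in T3 (log2 1.73), so its value is uncertain.

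Tnnt3, the tropomyosin-binding subunit of fast fibres, stood at 3.72, 3.71 and 2.35 CPM in T0, 7.52, 11, 7.59 and 10.7 CPM in T3 and 7.05 and 7.54 CPM in T5. T3 and T5 overlapped, and both were above T0. It rose 1.50 ± 0.24 (adjusted p = 1.68e-05) and, unlike Tnni2 and Tnnc2, was not called in T5 against T3 (log2 −0.34 ± 0.25), whereas T5 was above T0 by 1.17 ± 0.27 (adjusted p = 0.00121). Tnnt3 shares 46.2% of its span with Prr33, which was not called.

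The slow troponins differed among themselves. Tnni1, the slow inhibitory subunit, stood at 1.3, 1.75 and 2.86 CPM in T0, 3, 3.12, 3.38 and 1.66 CPM in T3 and 3.41 and 3.48 CPM in T5. T0 and T3 overlapped (log2 0.49 ± 0.28, adjusted p = 0.191), and T5 was above both. Tnnt1, the slow tropomyosin-binding subunit, stood at 23.7, 19.4 and 19.4 CPM in T0, 10.2, 8.23, 11.3 and 11.6 CPM in T3 and 13.9 and 13.1 CPM in T5.

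The 3 groups did not overlap for Tnnt1, which fell by 1.01 on the log2 scale (SE 0.20, adjusted p = 0.000211) and stayed below T0 in T5 (−0.62 ± 0.24, adjusted p = 0.0461). This second call was lost in 8 of the alternatives: without T0 replicate 1 or 2 or either T5 replicate (adjusted p = 0.0727 to 0.295), with upper quartile factors (−0.28, 0.242), without a filter (0.0763), with a mean of at least 1 CPM (0.0543) and with only the groups compared (0.101). Tnnc1, the slow calcium-binding subunit, had a log2 fold change of 0.57 ± 0.36 from T0 to T3 and was not called. T5 was above T0 by 1.06 ± 0.39 (adjusted p = 0.0384), a call lost without T0 replicate 1 or 2 or either T5 replicate (adjusted p = 0.0723 to 0.186), with DESeq2 (0.0647) and with only the groups compared (0.0753). Tnnc1 lies wholly inside Nisch on the other strand.

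Tpm1, a tropomyosin made in many cell types, stood at 51.5, 40.3 and 40.8 CPM in T0, 32.4, 45.2, 36 and 37.6 CPM in T3 and 41.5 and 41.2 CPM in T5. Neb, the giant ruler protein of the thin filament, stood at 50.4, 41.4 and 38 CPM in T0, 37.4, 36.7, 32.6 and 41.2 CPM in T3 and 36.4 and 37.1 CPM in T5. T0 and T3 overlapped in both genes, with log2 fold changes of −0.23 ± 0.19 for Tpm1 and −0.23 ± 0.19 for Neb. Tpm2 had 0.13 ± 0.20.

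The 250 bases before the start of transcription that RefSeq gives are shown for Myh4, Acta1 and Tnnc2, which rose in T3 and fell in T5, and for Tnnc1, the slow counterpart of Tnnc2 that was not called in either comparison. They are from RefSeq (GRCm38.p6), 5′ to 3′ in the direction of transcription. For Myh4, and by fewer bases for Acta1, that start lies upstream of the GENCODE gene model given above. For Tnnc2 it lies within the GENCODE gene model, so most of the Tnnc2 window is inside that model. The 2 annotations thus place these starts differently. Capitals mark motifs known from muscle promoters and the core promoter, searched on both strands: the E-box CANNTG, the MEF2 box, the CArG box and the TATA box TATAAA, which can overlap: in Myh4 one TATA box match, read on the other strand, lies within the MEF2 box match.
Myh4, chr11:67237562-67237811, plus strand: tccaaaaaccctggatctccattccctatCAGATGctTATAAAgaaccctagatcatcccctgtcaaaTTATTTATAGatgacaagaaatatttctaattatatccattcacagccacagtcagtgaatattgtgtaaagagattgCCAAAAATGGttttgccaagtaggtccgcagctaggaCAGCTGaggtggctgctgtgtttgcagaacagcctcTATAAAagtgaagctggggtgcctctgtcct
Acta1, chr8:123894776-123895025, minus strand: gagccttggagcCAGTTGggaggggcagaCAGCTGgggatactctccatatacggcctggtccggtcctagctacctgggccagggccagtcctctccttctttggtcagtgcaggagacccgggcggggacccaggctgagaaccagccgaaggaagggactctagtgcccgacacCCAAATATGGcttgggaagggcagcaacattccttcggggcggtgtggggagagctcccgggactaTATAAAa
Tnnc2, chr2:164779735-164779984, minus strand: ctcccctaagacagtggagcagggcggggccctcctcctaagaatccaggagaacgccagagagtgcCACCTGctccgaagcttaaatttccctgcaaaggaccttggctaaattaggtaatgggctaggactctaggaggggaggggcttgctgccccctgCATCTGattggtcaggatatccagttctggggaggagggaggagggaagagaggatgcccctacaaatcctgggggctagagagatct
Tnnc1, chr14:31208062-31208311, plus strand: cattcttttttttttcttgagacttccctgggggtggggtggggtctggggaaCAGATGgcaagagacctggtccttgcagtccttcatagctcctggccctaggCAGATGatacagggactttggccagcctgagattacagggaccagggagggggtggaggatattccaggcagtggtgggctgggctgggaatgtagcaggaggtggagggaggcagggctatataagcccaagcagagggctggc
All 4 hold 2 E-boxes. Myh4 also holds 1 MEF2 box, 1 CArG box and 3 TATA boxes, and Acta1 holds 1 CArG box and 1 TATA box. Of 32851 such windows, 66.2% held an E-box, 2.9% a MEF2 box, 1.5% a CArG box and 12.4% a TATA box. Windows were found for 28 of the 38 members, 34 in all, of which 30 held an E-box, 5 a MEF2 box, 3 a CArG box and 6 a TATA box. A match is a stretch of letters and not a measured site of binding.

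**Figure D3:**
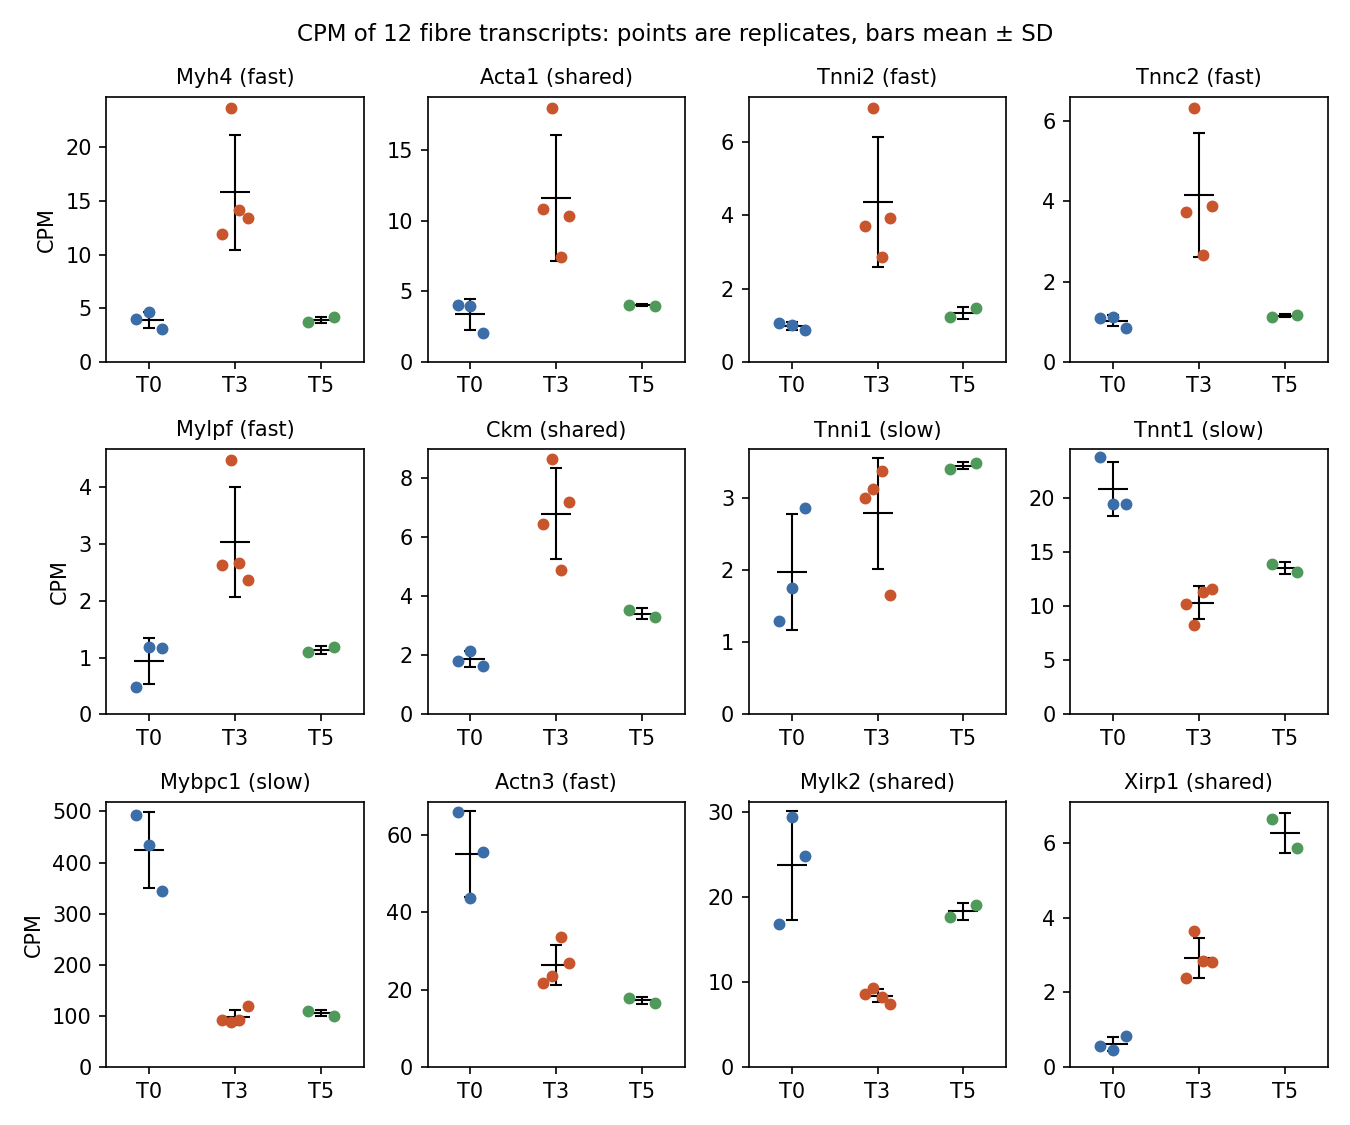
Each panel is 1 gene, with points for replicates (T0 n = 3, T3 n = 4, T5 n = 2 sums of 2 libraries) and bars for mean ± SD, in CPM on a linear axis from 0. Myh4, Acta1, Tnni2, Tnnc2, Mylpf and Ckm peak in T3, Mylk2 is lowest in T3, Mybpc1 is highest in T0 and Xirp1 is highest in T5.

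At the Z-disc and along the scaffold of the sarcomere, Actn3, the actin cross-linker of fast fibres, stood at 66, 43.7 and 55.7 CPM in T0, 21.7, 23.6, 33.6 and 27 CPM in T3 and 17.9 and 16.6 CPM in T5. The 3 groups did not overlap and T0 was highest. Actn3 fell by 1.06 on the log2 scale (SE 0.21, adjusted p = 0.000221), opposite to the fast filament genes above. Its non-fast counterpart Actn2 had 0.15 ± 0.19 from T0 to T3 and was higher in T5 than in T0 (0.81 ± 0.23, adjusted p = 0.00659), a call lost without either T5 replicate (adjusted p = 0.0885 and 0.0675).

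Ttn, which encodes titin, the elastic spring of the sarcomere, stood at 42.7, 49.8 and 50.1 CPM in T0, 70.6, 97.6, 71.8 and 79.8 CPM in T3 and 79.3 and 81.4 CPM in T5. T3 and T5 overlapped above T0, and Ttn rose 0.75 ± 0.20 (adjusted p = 0.00377). The antisense gene model Gm13938, which covers 23% of its span, was also higher in T3 (log2 0.76). Tcap, the titin cap, averaged 0.304 ± 0.0956 CPM over T0 and 0.666 ± 0.287 over T3 (a change of 1.15 ± 0.41, adjusted p = 0.0294). The groups overlapped for Tcap, and leaving out T0 replicate 2 or 3 or T3 replicate 1 or 2 ended the call (adjusted p = 0.0733 to 0.11).

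Xirp1, an actin-binding protein of fibre attachment sites, stood at 0.563, 0.464 and 0.832 CPM in T0, 2.38, 3.64, 2.84 and 2.82 CPM in T3 and 6.64 and 5.88 CPM in T5. Each group lay above the one before it, with a rise of 2.22 ± 0.27 into T3 (adjusted p = 5.07e-07) and of 1.10 ± 0.25 into T5 (adjusted p = 0.0186). The second was lost without either T5 replicate (adjusted p = 0.354 and 0.176), T3 replicate 1 (0.0673) or T3 replicate 4 (0.0596). Upper quartile factors ended it as well (0.0539). Xirp1 lies wholly inside the gene model of Cx3cr1 on the same strand, which went from 71.4 CPM in T0 to 246 CPM in T3, so that its value is uncertain.

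The remaining scaffold members Myoz1, Myot and Xirp2 had log2 fold changes of 0.75, 0.04 and 0.15 from T0 to T3 and were not called. For Myoz1 the adjusted p was 0.0568, and it fell under the threshold in 4 of the alternatives, with RLE or upper quartile factors or without T3 replicate 1 or 4.

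Calcium handling held members that fell. Ryr1, the calcium release channel, stood at 113, 109 and 52.2 CPM in T0, 29.5, 36.5, 24.6 and 36 CPM in T3 and 26.8 and 28.9 CPM in T5. T0 was above both groups even at its lowest replicate, and Ryr1 fell by 1.53 on the log2 scale (SE 0.24, adjusted p = 1.54e-05). Atp2a1, the calcium pump of fast fibres, stood at 29.1, 22.4 and 16.6 CPM in T0, 12.3, 19.2, 10.7 and 14.4 CPM in T3 and 11.3 and 11.9 CPM in T5.

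T0 and T3 overlapped for Atp2a1, whose log2 fold change was −0.68 ± 0.23 (adjusted p = 0.0203). The call was lost without T0 replicate 1, T3 replicate 1 or T3 replicate 3 (adjusted p = 0.119, 0.0627 and 0.0822) and with upper quartile factors (adjusted p = 0.144). Atp2a1 shares 19.6% of its span with Rabep2 on the other strand, which was lower in T3 too (−0.90). Cacna1s, the voltage sensor that opens Ryr1, stood at 3.59, 4.76 and 5.94 CPM in T0, 5.25, 6.16, 4.78 and 4.64 CPM in T3 and 6.02 and 5.85 CPM in T5, with overlapping groups (log2 0.13 ± 0.22).

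Pvalb, the calcium buffer parvalbumin of fast fibres, averaged 1.22 ± 0.276 CPM over T0 (n = 3) and 3.55 ± 0.538 over T3 (n = 4) without overlap, a rise of 1.54 ± 0.24 (adjusted p = 1.99e-05). In T5 it was at 1.82 ± 0.0363 CPM (n = 2), a log2 difference from T3 of −0.96 ± 0.27 that just missed the threshold (adjusted p = 0.0607). Pvalb was called lower there with DESeq2 (adjusted p = 0.00662). In edgeR it was called with RLE factors (0.043), only the groups compared (0.00901) and 4 separate T5 libraries (0.00518). Casq1, the calcium store protein, had a log2 fold change of 0.08 ± 0.23 from T0 to T3.

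Among genes of energy and oxygen supply, Ckm, the muscle creatine kinase, stood at 1.82, 2.15 and 1.64 CPM in T0, 6.45, 8.62, 4.89 and 7.19 CPM in T3 and 3.54 and 3.28 CPM in T5. The 3 groups did not overlap, with T5 between the others. Ckm rose 1.86 ± 0.24 (adjusted p = 1.24e-06) and fell by 0.99 on the log2 scale in T5 (SE 0.26, adjusted p = 0.0457). The fall was lost without T3 replicate 1, 2 or 4 or either T5 replicate (adjusted p = 0.0774 to 0.681), with upper quartile factors (0.0586) and with a mean of at least 1 CPM (0.0512). A930016O22Rik, which lies within the Ckm gene on the other strand, was higher in T3 too (log2 1.84).

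Mb, the oxygen carrier myoglobin, stood at 3.87, 4.62 and 5.18 CPM in T0, 7.01, 7.79, 6.89 and 6.84 CPM in T3 and 11.8 and 12 CPM in T5. Each group lay above the one before it, and Mb rose 0.64 ± 0.20 in log2 into T3 (adjusted p = 0.0129) and 1.38 ± 0.23 from T0 to T5 (adjusted p = 5.09e-05). Mb overlaps Apol6 on the other strand, which was higher in T5 than in T3 (log2 1.51). Ampd1, the AMP deaminase of muscle, stood at 1.32, 1.55 and 2.17 CPM in T0, 4.54, 5.22, 5.64 and 4.19 CPM in T3 and 5.21 and 4.69 CPM in T5.

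Ampd1 rose 1.54 ± 0.24 (adjusted p = 1.26e-05), with T3 and T5 overlapping above T0. Pygm, the glycogen phosphorylase of muscle, stood at 29.3, 23.3 and 13.7 CPM in T0, 21.7, 24.5, 23.7 and 25.2 CPM in T3 and 22 and 22.1 CPM in T5. T3 and T5 lay inside the T0 range for Pygm, with a log2 fold change of 0.11 ± 0.22.

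Fast and slow counterparts could be set against each other within a library, where the scaling to library size drops out. The ratio of CPM per kb of exonic length of Tnni2 to Tnni1 was 1.96, 1.39 and 0.731 in T0, 2.99, 5.35, 2.03 and 5.71 in T3 and 0.859 and 1.01 in T5. That of Tnnc2 to Tnnc1 was 6.64, 4.03 and 2.68 in T0, 13.4, 12.2, 8.34 and 9.25 in T3 and 2.1 and 2.13 in T5. The ratio of Myh4 to Myh7 was 5.07, 3.78 and 1.61 in T0, 7.94, 12.3, 7.05 and 9.12 in T3 and 1.96 and 2.33 in T5. In all 3 pairs every T3 replicate had a higher ratio than every other replicate.

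Over the 7 pairs, the T3 and T0 ratios did not overlap in 6, the exception being Myl1 to Myl3, and the T5 ratios were below all T3 ratios in 7. How often ratios of other genes fail to overlap was not counted. Myh4, paired with Myh7, was the fast heavy chain gene with the largest rise into T3. Myh1 and Myh2 were not paired, and had log2 fold changes of 0.65 and 0.10 beside 0.39 for Myh7. In the 6 pairs the two-sided exact permutation p for T3 against T0 was 0.0571, the smallest that 3 against 4 replicates allow, and 0.0667 after adjustment over the 7 pairs. For T5 against T3 it was 0.133 in each pair, also the smallest possible. The exact test thus could not pass the threshold with these numbers of replicates, and no other test of the ratios was run. In 2 of the 6 pairs the slow gene was itself called lower: the median ratio of Tnnt3 to Tnnt1 went from 0.218 to 1.15 and that of Mybpc2 to Mybpc1 from 0.00891 to 0.0658.

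**Figure D4:**
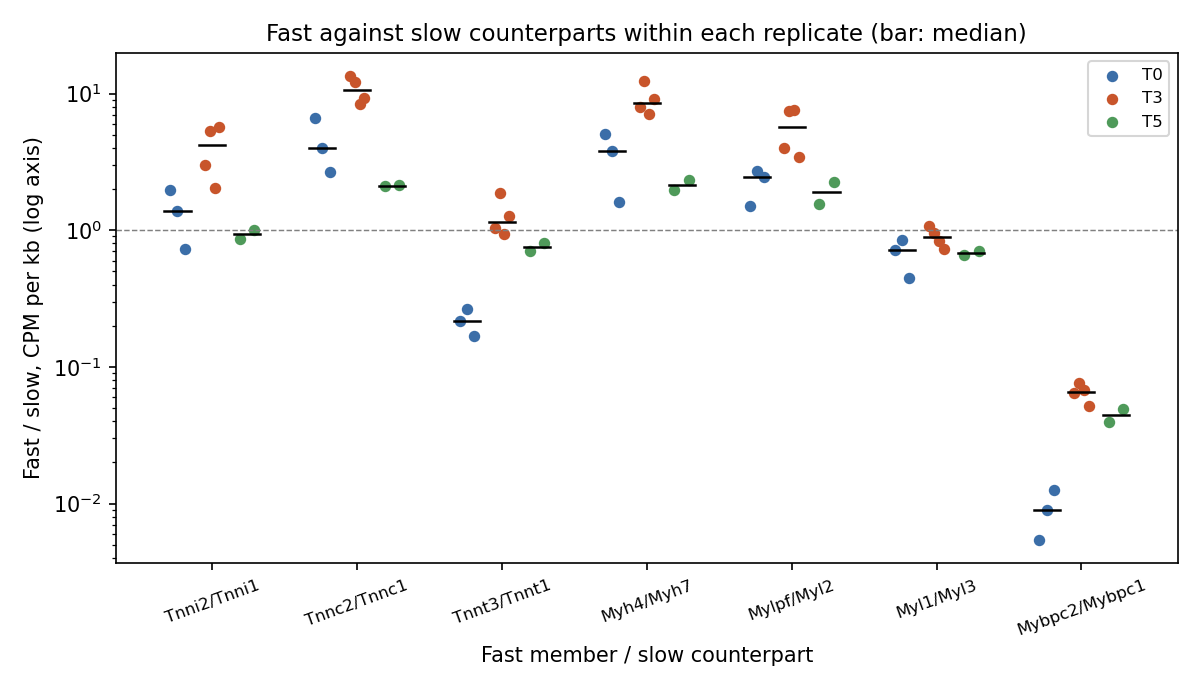
Each point is the ratio of a fast gene to its slow counterpart in 1 replicate, in CPM per kb on a log axis, with the median of the group as a bar. T3 lies above T0 without overlap in 6 of 7 pairs, and T5 below T3 in 7 of 7.

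On the scale of level per exonic length, the mean differences between T3 and T0 were 5.38 CPM per kb for Acta1, 3.91 for Tnnc2, 3.76 for Tnnt3 and 1.98 for Myh4. Those of the 5 slow genes Myh7, Myl2, Tnnc1, Tnni1 and Myl3 were 0.07, 0.152, 0.163, 0.227 and 0.419 CPM per kb. These lay within the span of the fast class, where Myh2 had 0.0256, Casq1 0.0989, Myoz1 0.204, Myh1 0.329 and Mybpc2 0.573. The members that fell had larger negative differences, −72.2 for the slow Mybpc1, −9.89 for the fast Actn3 and −4.76 for the slow Tnnt1. Among 1708 odorant, pheromone and taste receptor and defensin genes, taken as not expressed in muscle, the median was 0.0138, 0.02 and 0.0315 CPM per kb of exon in the T0 replicates, 0.0209 to 0.0315 in T3 and 0.0329 to 0.0335 in T5. The 5 slow genes stood at 9.9 (Myh7) to 44.9 (Myl3) times this background in T0, and the fast genes Myh1, Myh4, Tnni2 and Mylpf at 29.8, 34.2, 34.5 and 41.1 times. Per kb of the whole gene span, introns included, the 5 slow genes stood at 5.4 (Tnni1) to 8.58 (Tnnc1) times background in T0. On that measure the same fast genes stood at 14.6, 17.4, 37.8 and 15 times, but the fast Myl1 and Pvalb at 5.68 and 7.59. All 5 slow genes ranked the T0 replicates in the same order as the background did, but the slow Mybpc1 and Tnnt1 did not. Myh1, Myh4, Tnni2 and Mylpf did not, whereas the fast gene Mybpc2 did. The shared genes Mb, Cacna1s, Ampd1, Ttn and Actn2 did so too, and the order was thus not particular to slow genes. The part of the background in these values was not tested.

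In 13 of the 16 members that rose from T0 to T3, T3 replicate 2 was the highest T3 replicate, and so it was in 6 of the 6 that fell in T5. Both sets were picked for high T3 values, and the share over all genes was not counted. The counts therefore cannot be read as particular to fibre genes. T3 replicate 2 had the largest total and the lowest TMM factor of T3 (72638711 and 0.8966). Leaving out T3 replicate 2 kept 14 members called higher in T3 against T0 and 4 called lower in T5 against T3. Of the 7 slow members, 2 were highest in it. The T5 libraries varied within a letter: over the 8 members called in T5 against T3 the highest of the 4 libraries was a median 1.87 times the lowest, whereas the 2 sums differed by a median 1.09 times. In 8 of these 8 members the 4 T5 libraries lay on 1 side of all T3 replicates. The 8 were picked by a call on sums of these same libraries, which favours such a separation. It is therefore no added support for the calls. Of the 38 members, 21 overlap another gene of the table and 17 do not, and of the 17, 6 were higher and 4 lower in T3 against T0 and 1 higher and 3 lower in T5 against T3.

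Fibre genes outside the 38 members moved both ways from T0 to T3. Of 28 other sarcomere genes 9 rose and 5 fell (median log2 fold change 0.28). Des, the muscle intermediate filament protein that stem cells also make, went from 209 ± 41.9 to 469 ± 48.9 CPM (log2 1.16), and Tpm3, a tropomyosin of slow fibres and of many other cells, from 31.1 ± 5.84 to 95.7 ± 21 CPM (1.62). Tmod1, which caps the thin filament, rose from 7.4 ± 1.19 to 34.3 ± 5.82 CPM in T3 and to 80.4 ± 5.85 CPM in T5 (log2 2.21 and 1.23).

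Of 20 other genes of excitation and calcium handling 4 rose and 6 fell (median −0.01). Atp2a2, the calcium pump of slow fibres and non-muscle cells, rose from 128 ± 32.5 to 421 ± 59.3 CPM (log2 1.72), the opposite of Atp2a1, and Asph, whose gene also makes the triad protein junctin, fell from 143 ± 33.3 to 38.4 ± 2.9 CPM. Jph2, a junctophilin of the triad, rose from 21.7 ± 5.12 to 44.7 ± 16.5 CPM. Of 19 further genes of fibre metabolism 4 rose and 3 fell (median 0.27). Pfkm, the muscle phosphofructokinase, and Phka1, a phosphorylase kinase subunit, fell by 1.29 and 0.82 on the log2 scale, and the subunit gene Phkg1 rose 0.55.

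Of 8 developmental isoforms and regulators, Myl4 rose (log2 0.72) and Myog, the differentiation factor myogenin, fell from 1.84 ± 0.371 to 0.496 ± 0.305 CPM in T3 and rose to 2.04 ± 0.214 CPM in T5 (log2 2.02, adjusted p = 0.00373). Of 12 genes of the neuromuscular and tendon junction 2 rose and 3 fell. Musk, the kinase that gathers acetylcholine receptors, rose 0.85, Ankrd1, a stretch-responsive partner of titin, rose 1.00, and the receptor subunit gene Chrnb1 fell by 0.93 on the log2 scale.

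Markers of other cells moved with the groups as well. Of 10 endothelial markers 5 rose and 0 fell from T0 to T3 and 0 rose and 5 fell from T3 to T5, with Pecam1 at 25.4 ± 7.68, 65.8 ± 3.13 and 33.8 ± 1.58 CPM in T0, T3 and T5. Cdh5 and Flt1 took the same course (log2 1.12 and 1.25 into T3, −1.11 and −1.26 into T5). The sum of the 10 was highest in T3, as were Myh4, Tnni2, Tnnc2, Mylpf, Acta1 and Ckm, and the part of other cells in the fibre transcripts was not tested. Tek was the largest part of that sum, at 155 ± 41.6 CPM in T0, 227 ± 46.4 in T3 and 138 ± 6.77 in T5. Tek, Kdr, Tie1, Emcn and Esam were not called in either comparison. Of 10 macrophage markers 2 rose and 0 fell (23.48 to 49.02 CPM summed in T0 and 34.69 to 52.79 in T3).

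Of 10 smooth muscle and pericyte markers 1 rose and 4 fell (690 to 1116 CPM summed in T0 and 279.3 to 528.6 in T3), and of 10 fibro-adipogenic markers 1 rose and 3 fell (869.7 to 1290 and 469.9 to 785.6 CPM). Single genes carried these sums. Notch3 was the largest part of the first, at 738 ± 197 CPM in T0 and 214 ± 71.1 in T3. In the second, Col3a1 went from 490 ± 111 to 261 ± 46.6 CPM and Gsn from 414 ± 68.2 to 220 ± 70.2 CPM. Of 8 erythroid markers 0 rose and 1 fell (36.53 to 39.3 and 13.13 to 30.7 CPM). None of these markers was at 0 in any group. Of the 12 satellite cell markers 3 rose and 7 fell from T0 to T3. Pax7 and Chodl fell and Sdc4 rose. Mybpc1, Actn3, Atp2a1, Ryr1, Tnnt1 and Mylk2 fell as the majority of that list did, and a shared source was not tested. From T3 to T5 Mylk2 rose again (log2 1.13), whereas Pax7 and Chodl did not (0.00 and −0.86).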

How the data were processed

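Directional libraries of total RNA were sequenced as 65-bp single reads, per the labels. The authors deposited 1 table of raw counts per gene (48709 genes, 11 libraries). Per the submitters' processing notes, the build was GRCm38 and the tools were DESeq2 1.12.3, R 3.3.1, featureCounts 1.4.6-p3 and STAR 2.5.0a. The annotation release, strand setting and filters are not given in the sources used here. Of 117 pairs of a coding gene (mean count of at least 100) wholly inside a non-coding gene of the other strand, the non-coding gene had at least as high a count in every library in 96.6%, against 10.3% for the nearest non-coding gene of the other strand without overlap. Genes that overlap another gene, on either strand, are therefore uncertain.

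Columns were placed in groups by name. Column numbers could not be matched to title letters within T0 and T3, and replicates carry column numbers. Gene models came from GENCODE vM21 (48349 of 48709 IDs matched). From the counts, edgeR 4.0.16 (R 4.3.3) was run with TMM, filterByExpr and its two-sided quasi-likelihood F test, all groups in 1 fit, with Benjamini-Hochberg adjustment over 31999 genes and a call under 0.05. The scripts were tested on simulated data. Alternatives were DESeq2 1.42.0, RLE and upper quartile factors, other filters, only the groups compared, 4 separate T5 libraries, a replicate block and leaving out each replicate.

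Values in every replicate are given for the 4 members of each class highest per kb, all members lower in T3 than T0, all called in T5 against T3, and 1 further member of each role. Of each other list, up to 3 called genes with the highest CPM are named. The members and lists were chosen with earlier results of these data known.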

Additional observations from a re-analysis of the deposited data

Results flagged for a closer look

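In groups of 4 to 10 replicates, which here means T3, a member was taken up where its highest or lowest replicate stood apart from the other 3 by a share of the whole range above Dixon's critical value. Chance takes up about 1 in 20 groups, and 2 of the 38 members were taken up. Mylpf, the fast regulatory light chain, was at 4.47 CPM in T3 replicate 2, while the nearest T3 replicate was at 2.67 CPM, a gap of 0.853 of the range. Without that replicate the rise of Mylpf from T0 to T3 was 1.41 on the log2 scale in place of 1.66, and its call in T5 against T3 was lost (adjusted p = 0.0988, edgeR). Mybpc1, the slow myosin binding protein, was at 119 CPM in T3 replicate 4, while the nearest was at 92.2 CPM, a gap of 0.848 of the range. Its log2 fold change from T0 to T3 was between −2.25 and −1.81 under every alternative run.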

How the results depend on the processing

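No member that was called changed direction under any alternative run. For T3 against T0 the counts of 16 higher and 6 lower were 14 to 18 and 5 to 6 with 1 replicate left out. Over the 17 members that overlap no other gene, an alternative chosen after seeing the data, 6 were higher and 4 lower. Their medians were 1.54 for the 7 fast and 0.11 for the 7 shared members. For the 3 slow members, Mybpc1, Tnnt1 and Tnni1, the median was −1.01, opposite in sign to the slow median over all members. With upper quartile factors, which moved the median over all genes from 0.0472 to 0.318, the medians were 1.18 for fast, 0.42 for shared and 0.72 for slow members, and leaving out replicates gave 0.12 to 0.31 for shared, 0.82 to 1.04 for fast and 0.27 to 0.74 for slow members. For T5 against T3 the 2 higher became 1 with upper quartile factors, 3 with a mean of at least 1 CPM, 4 with only the groups compared, 4 with the T5 libraries as 4 replicates and 1 without overlapping members. The 6 lower became 4, 4, 7, 7 and 3 in the same order. DESeq2 and RLE factors each added Pvalb to the lower members. Leaving out replicates gave 0 to 2 higher and 2 to 6 lower, with 0 and 2 without T5 replicate A, 0 and 3 without B, and 1 higher without T3 replicate 1 or 4. The slow median there, 0.12 as reported, was 0.11 to 0.28 with a replicate left out, 0.01 with DESeq2 and 0.02 with RLE factors. Over the members without overlap the T5 against T3 medians were −0.96 for fast, −0.11 for shared and 0.30 for slow members. A T5 group of 1 was assumed to vary like the other groups. For T5 against T0 the 8 higher and 5 lower became 4 to 12 and 3 to 5 with a replicate left out (4 and 3 without either T5 replicate, 12 higher without T0 replicate 3), 11 and 3 with upper quartile factors, and 1 and 3 without overlapping members. There the fast median was 0.16 to 0.38 with a replicate left out, 0.57 with upper quartile factors and 0.41 with only the groups compared. The shared median was 0.02 to 0.31 with a replicate left out, 0.14 with DESeq2, 0.16 with RLE factors, 0.61 with upper quartile factors and 0.47 with only the groups compared. The slow median was 0.41 to 0.87, but −0.62 over the 3 slow members that overlap no other gene. In the set without overlap the fast median was 0.42 and the shared median −0.06. The cause of these shifts was not tested. With the replicate block on column numbers, T3 against T0 gave 15 higher and 5 lower. T3 replicate 4 has no T0 replicate of its number and so added nothing to that comparison. Mb, Atp2a1 and Tcap lost the call (adjusted p = 0.0662, 0.0734 and 0.0821, edgeR) and Tnni1 gained it (0.0496). Correlations of same-numbered T0 and T3 replicates were −0.226, 0.374 and 0.307, and those of differently numbered ones ran from −0.457 to 0.47. With so few replicates these values cannot decide whether same-numbered samples belong together. T5 columns carry letters, so no block could be fitted there.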
